A study of Mus musculus with 19 samples.

Results

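The genes described here are 7 regulators of skeletal muscle fiber type: the noncoding transcript 2310065F04Rik, known as linc-MYH, and the protein-coding genes Six4, Eya1, Eya3, Eya4, Sox6 and Prox1. They are 7 of the 30214 gene names on the array and 7 of the 24741 whose signal was high enough to be tested. They were chosen with their measured levels in the 4 groups of mice already known, so their levels and differences are given as a description, without a test of their own, and where the fit across all probes called a member the call supports nothing. RNA came from the quadriceps of male C57Bl6J mice aged 180 days, either wild type (CTR) or AR113Q, a knock-in line whose androgen receptor carries an expanded run of glutamines and which models spinal and bulbar muscular atrophy. From 40 days of age they were given either of 2 diets, a normal one (NCD) or one high in fat (HFD). CTR mice gave 5 arrays on NCD and 4 on HFD, and AR113Q mice gave 5 on each diet. The labels do not say whether each sample is 1 mouse, so errors and p-values measure the spread between these samples. A level below is the log2 of the scanner's processed spot signal minus the log2 of that array's 75th percentile, so 0 marks the array's own 75th percentile.

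Fast fibers contract quickly and rely on glycolysis, while slow fibers resist fatigue and burn fat and sugar in mitochondria. Homeodomain proteins of the Six4 family bind DNA sites called MEF3, and Eya proteins join them as coactivators to switch on fast fiber genes. linc-MYH lies beside the fast myosin heavy chain genes and is made in fast fibers together with them, Sox6 represses slow fiber genes, and Prox1 is a homeodomain protein of slow fibers and of lymphatic endothelium.

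Each member had 1 probe on the array. Signal was well above background on all 19 arrays for linc-MYH, Six4, Eya1, Eya3, Eya4 and Sox6, and on 9 arrays for Prox1. The linc-MYH probe lies at chr11:66925963-66926022 on the minus strand of mm9, and it is printed because the largest difference among the members rests on this 1 sequence.

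linc-MYH probe: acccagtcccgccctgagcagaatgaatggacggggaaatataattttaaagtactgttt

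RefSeq promoter sequences (GRCm38.p6, 300 bases around each start) were found for 6 of the 7 members, 14 promoters in all, and Eya1 had none. The promoters of linc-MYH and of Sox6 are shown because these members had the largest negative differences between genotypes. The linc-MYH promoter is chr11:67120031-67120330 on the minus strand, and the Sox6 promoter, 1 of 6 listed for the gene and chosen because it holds the letters searched for, is chr7:115824661-115824960 on the minus strand. Capitals mark the MEF3 core TCAGGTT and the SOX core AACAAT, each searched on both strands, so that a match on the other strand reads AACCTGA or ATTGTT.

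linc-MYH promoter: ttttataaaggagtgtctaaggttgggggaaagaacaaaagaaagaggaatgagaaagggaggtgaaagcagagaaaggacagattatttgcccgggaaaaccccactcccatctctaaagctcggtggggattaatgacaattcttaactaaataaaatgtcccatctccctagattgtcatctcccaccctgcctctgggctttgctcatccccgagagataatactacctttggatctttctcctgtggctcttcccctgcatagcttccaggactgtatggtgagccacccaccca

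Sox6 promoter: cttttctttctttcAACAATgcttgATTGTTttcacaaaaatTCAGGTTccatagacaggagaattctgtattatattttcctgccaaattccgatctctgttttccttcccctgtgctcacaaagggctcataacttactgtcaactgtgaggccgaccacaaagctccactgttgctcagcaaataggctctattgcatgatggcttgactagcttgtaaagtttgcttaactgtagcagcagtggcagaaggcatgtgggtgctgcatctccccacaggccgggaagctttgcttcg

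The MEF3 core was present in 4.07% of 32851 promoters of this length and the SOX core in 3521 of them. The linc-MYH window held neither, nor the E-box CANNTG that 72.3% of promoters hold. The Sox6 window held the MEF3 core at -208 and the SOX core at -236 and -225 from the start, none of them overlapping. A Six4 promoter (chr12:73113196-73113495, minus strand) held the MEF3 core at -97, and the Eya3 promoter (chr4:132638796-132639095, plus strand) held the SOX core at -35. Such matches describe letters in a window and say nothing of binding.

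linc-MYH was far lower in AR113Q muscle on both diets. On the 5 CTR-NCD arrays its level was 2.07, 2.25, 2.35, 1.85 and 2.62, and on the 4 CTR-HFD arrays it was 2.17, 2.36, 1.95 and 2.36. On the 5 AR113Q-NCD arrays it was -1.18, -1.07, -1.13, -0.38 and -0.91, and on the 5 AR113Q-HFD arrays -1.81, -1.37, -2.06, -0.84 and -1.63. Every AR113Q array lay below every CTR array, and the gap between genotypes was wider than the whole spread within any group. In scanner units the processed signal ran from 3215 to 4887 on CTR-NCD arrays, 3099 to 4517 on CTR-HFD arrays, 458 to 670 on AR113Q-NCD arrays and 288 to 575 on AR113Q-HFD arrays. Fewer cells of a type and less RNA per cell cannot be told apart in whole muscle.

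The mean linc-MYH level was 2.23 ± 0.29 (SD, n = 5) in CTR-NCD, 2.21 ± 0.20 (n = 4) in CTR-HFD, -0.93 ± 0.33 (n = 5) in AR113Q-NCD and -1.54 ± 0.47 (n = 5) in AR113Q-HFD. The difference between genotypes was -3.16 (SE 0.21) on NCD, an 8.96-fold lower signal, and -3.75 (SE 0.22) on HFD, 13.5-fold lower. Among 32026 probes tested these ranked 11 and 3 from the lowest difference. The CTR groups did not differ beyond their spread, at -0.02 (SE 0.22) for HFD minus NCD. In AR113Q the HFD level was -0.61 (SE 0.21) relative to NCD, with 4 of 5 HFD arrays below all NCD arrays and 1 inside their range, and within slides it was negative on all 5, from -0.92 to -0.30. Each slide held arrays of several groups, and within slides the linc-MYH difference ran from -3.53 to -2.23 on 5 slides for NCD and from -4.01 to -3.73 on 4 slides for HFD. With slide as a term in the fit the differences were -3.16 and -3.83.

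**Figure D1:**
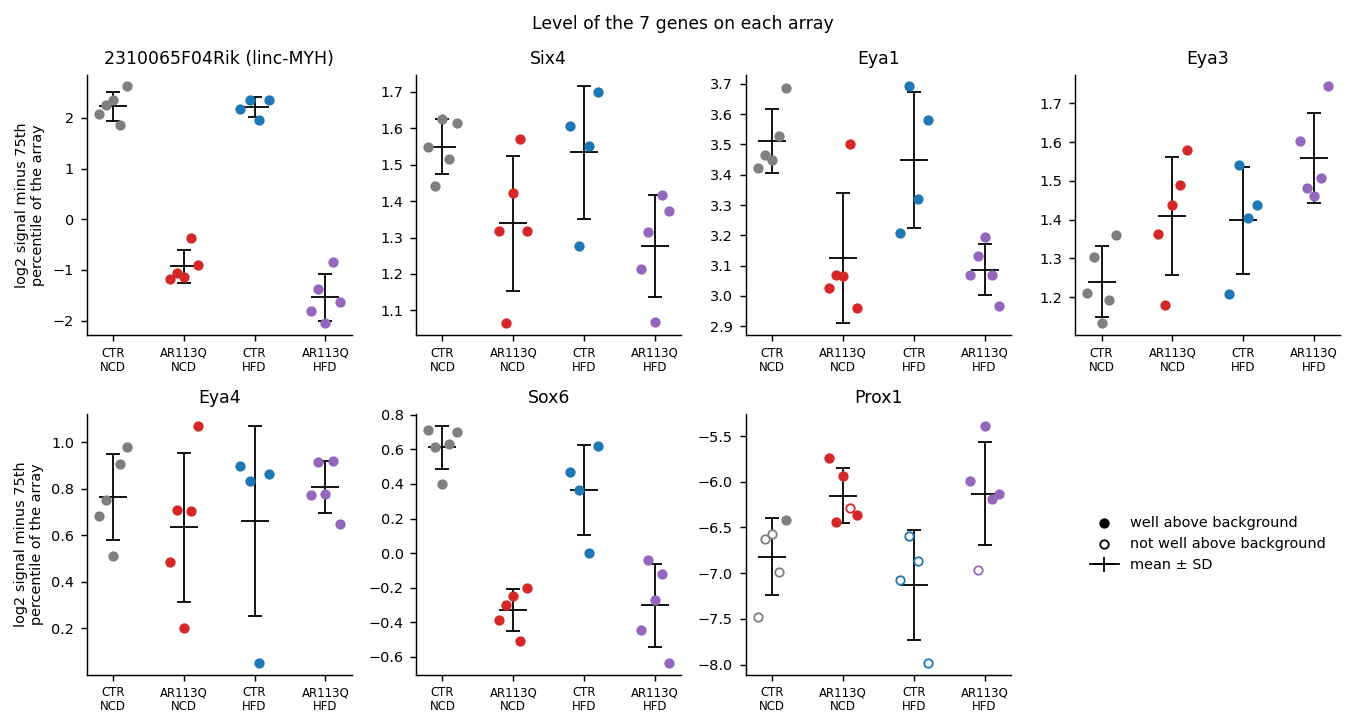
Level of each of the 7 members (log2 signal relative to the array's 75th percentile) on every array, by group, with group mean and SD. linc-MYH lies between 1.85 and 2.62 on CTR-NCD arrays and between -1.18 and -0.38 on AR113Q-NCD arrays, while the scaled levels of Six4, Eya3 and Eya4 overlap between genotypes.

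Sox6, the repressor of slow fiber genes, was also lower in AR113Q, without overlap of its scaled levels. Its level was 0.71, 0.61, 0.40, 0.63 and 0.70 on CTR-NCD arrays and -0.39, -0.30, -0.25, -0.51 and -0.20 on AR113Q-NCD arrays. It was 0.47, 0.37, 0.00 and 0.62 on CTR-HFD arrays and -0.44, -0.04, -0.27, -0.12 and -0.63 on AR113Q-HFD arrays. CTR-HFD replicate 3 was the lowest CTR array and lay just above the highest AR113Q array. Group means were 0.61 ± 0.12 (n = 5) in CTR-NCD, 0.36 ± 0.26 (n = 4) in CTR-HFD, -0.30 ± 0.24 (n = 5) in AR113Q-HFD and -0.33 ± 0.12 (n = 5) in AR113Q-NCD. The difference between genotypes was -0.94 (SE 0.12) on NCD, 1.92-fold lower, and -0.67 (SE 0.13) on HFD, 1.59-fold lower. The AR113Q groups did not differ beyond their spread, at 0.03 (SE 0.12) for HFD minus NCD, and in CTR the diet difference was -0.25 (SE 0.13) with overlapping arrays, and negative on all 4 slides, from -0.40 to -0.08. Within slides the Sox6 difference ran from -1.14 to -0.65 on NCD and from -1.25 to -0.27 on HFD, and with slide in the fit it was -0.94 and -0.67. Without scaling the HFD difference was -0.31, its call was lost, and the scanner signal of 802 to 1389 on CTR-HFD arrays overlapped that of 655 to 1006 on AR113Q-HFD arrays. The HFD call was also lost with a fold threshold.

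Eya1, a coactivator of Six4 and its relatives, differed less between genotypes. Its level was 3.42, 3.47, 3.45, 3.53 and 3.69 on CTR-NCD arrays and 3.03, 3.07, 3.06, 3.50 and 2.96 on AR113Q-NCD arrays. It was 3.21, 3.69, 3.32 and 3.58 on CTR-HFD arrays and 3.07, 3.13, 3.20, 3.07 and 2.97 on AR113Q-HFD arrays. On HFD every AR113Q array lay below every CTR array, and on NCD 4 of 5 did, with AR113Q-NCD replicate 4 inside the CTR range. Means were 3.51 ± 0.11 (n = 5) in CTR-NCD, 3.45 ± 0.22 (n = 4) in CTR-HFD, 3.12 ± 0.21 (n = 5) in AR113Q-NCD and 3.09 ± 0.08 (n = 5) in AR113Q-HFD. The genotype difference was -0.39 (SE 0.11) on NCD and -0.36 (SE 0.11) on HFD, and neither diet difference exceeded the spread. Within slides it ran from -0.73 to -0.03 on NCD and from -0.61 to -0.12 on HFD, and with slide in the fit it was -0.39 on both diets. The Eya1 call given below was lost on both diets under median centring, under normexp, without scaling and with a fold threshold, and on HFD also under quantile normalization, with the authors' values and with pairs of groups fitted alone. It was lost on NCD without CTR-NCD replicate 5 (difference -0.34) or AR113Q-NCD replicate 5 (-0.35), and on HFD without CTR-HFD replicate 2 or 4 or AR113Q-HFD replicate 1, 4 or 5.

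The size of this Eya1 difference depended on the scaling of the arrays. The log2 75th percentile itself was 9.75 ± 0.09 (n = 5) in CTR-NCD, 10.03 ± 0.17 (n = 5) in AR113Q-NCD, 9.75 ± 0.16 (n = 4) in CTR-HFD and 10.11 ± 0.15 (n = 5) in AR113Q-HFD. It was therefore higher in AR113Q by 0.28 on NCD and 0.35 on HFD, beside an Eya1 difference of -0.39 and -0.36. Without scaling between arrays, an alternative chosen after these percentiles were seen, the Eya1 difference was -0.11 (SE 0.10) on NCD and -0.01 (SE 0.11) on HFD, where the median of all probes moved to 0.22 and 0.28, so that Eya1 minus this median stayed at -0.33 and -0.29. Its scanner signal of 8858 to 10270 on CTR-NCD arrays overlapped that of 8428 to 9848 on AR113Q-NCD arrays. Without scaling the linc-MYH difference was -2.89 on NCD and -3.40 on HFD, and the Sox6 difference -0.66 and -0.31. Why the percentiles differed was not tested.

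**Figure D2:**
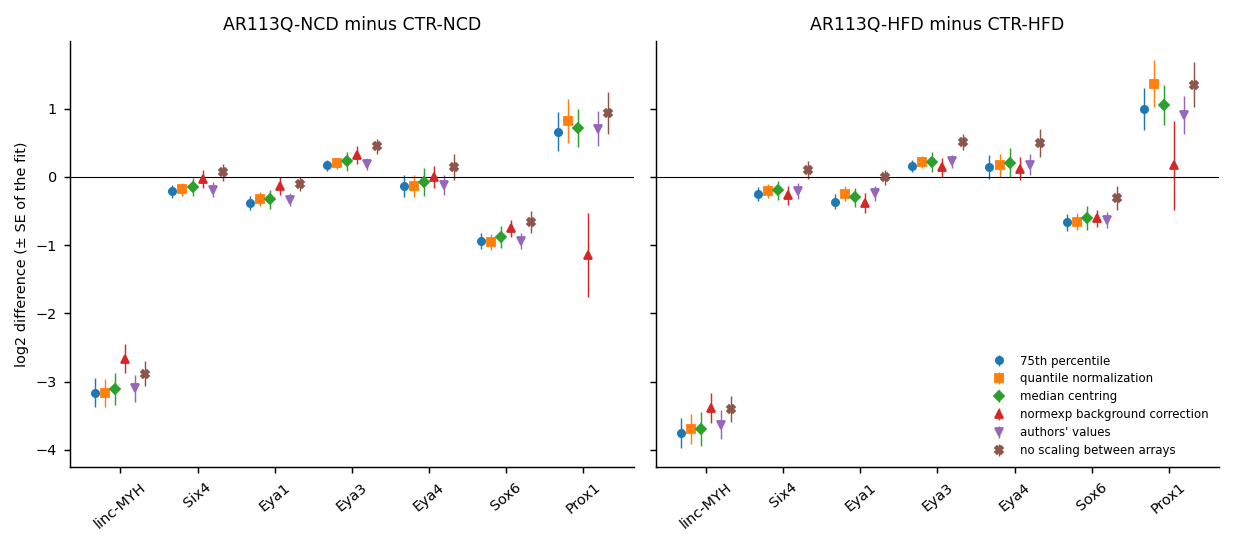
Genotype difference (log2, AR113Q minus CTR, with SE) of each member on NCD and HFD under each way of scaling the arrays. linc-MYH lies between -3.17 and -2.66 on NCD under every scaling shown, while Six4 lies between -0.21 and 0.07 and Prox1 between -1.15 and 0.94.

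The scaled levels of Six4, Eya3 and Eya4 overlapped between genotypes on both diets. Six4, a homeodomain factor, had levels of 1.55, 1.44, 1.63, 1.52 and 1.61 on CTR-NCD arrays, 1.32, 1.06, 1.42, 1.57 and 1.32 on AR113Q-NCD arrays, 1.61, 1.28, 1.55 and 1.70 on CTR-HFD arrays and 1.21, 1.32, 1.07, 1.42 and 1.37 on AR113Q-HFD arrays. On NCD 4 of 5 AR113Q arrays lay below all CTR arrays, and on HFD 2 of 5 did. Its means were 1.55 ± 0.08 (n = 5), 1.34 ± 0.19 (n = 5), 1.53 ± 0.18 (n = 4) and 1.28 ± 0.14 (n = 5) in that order, and the genotype difference of -0.21 (SE 0.10) on NCD and -0.26 (SE 0.10) on HFD became 0.07 and 0.10 without scaling. Within slides it was negative on 4 of 5 slides for NCD and 3 of 4 for HFD, and with slide in the fit it was -0.21 and -0.29. Six4 was called lower on HFD with slide or replicate number as a block and without CTR-HFD replicate 2, and on neither diet in the fit used here.

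Eya3, another coactivator of this family, had levels of 1.21, 1.30, 1.13, 1.19 and 1.36 on CTR-NCD arrays, 1.36, 1.18, 1.44, 1.49 and 1.58 on AR113Q-NCD arrays, 1.21, 1.54, 1.40 and 1.44 on CTR-HFD arrays and 1.60, 1.48, 1.46, 1.51 and 1.74 on AR113Q-HFD arrays. It was the Eya member with a positive difference on both diets, at 0.17 (SE 0.08) on NCD and 0.16 (SE 0.09) on HFD, each about the size of the spread within groups. Means were 1.24 ± 0.09 (n = 5) in CTR-NCD, 1.40 ± 0.14 (n = 4) in CTR-HFD, 1.41 ± 0.15 (n = 5) in AR113Q-NCD and 1.56 ± 0.12 (n = 5) in AR113Q-HFD, and no neighbours in that order differed beyond their spread, though within slides HFD minus NCD in AR113Q was positive on all 5, from 0.02 to 0.30. Without scaling the differences were 0.45 and 0.52, Eya3 was called higher on both diets, and its arrays did not overlap, with a scanner signal of 1914 to 2155 on CTR arrays against 2352 to 3433 on AR113Q arrays for NCD, and of 2120 to 2374 against 2888 to 3850 for HFD. Within slides Eya3 was higher in AR113Q on 4 of 5 slides for NCD and 3 of 4 for HFD, and with slide in the fit the differences were 0.17 and 0.16.

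Eya4, also of the Eya family, had levels of 0.68, 0.75, 0.51, 0.91 and 0.98 on CTR-NCD arrays, 0.48, 0.71, 0.20, 0.70 and 1.07 on AR113Q-NCD arrays, 0.90, 0.83, 0.05 and 0.86 on CTR-HFD arrays and 0.77, 0.91, 0.78, 0.92 and 0.65 on AR113Q-HFD arrays. No group stood apart, and the low CTR-HFD value came from replicate 3. Means were 0.63 ± 0.32 (n = 5) in AR113Q-NCD, 0.66 ± 0.41 (n = 4) in CTR-HFD, 0.77 ± 0.19 (n = 5) in CTR-NCD and 0.81 ± 0.11 (n = 5) in AR113Q-HFD, and no neighbours differed beyond their spread. The genotype difference was -0.13 (SE 0.17) on NCD, 0.15 without scaling, and 0.15 (SE 0.18) on HFD, which was 0.50 without scaling and -0.06 without CTR-HFD replicate 3. Within slides it was negative on 4 of 5 slides for NCD and 2 of 4 for HFD, and with slide in the fit it was -0.13 and 0.12.

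Prox1, the slow fiber and lymphatic factor, was close to background. Its level was -7.48, -6.63, -6.58, -6.98 and -6.42 on CTR-NCD arrays and -5.74, -6.44, -5.94, -6.29 and -6.37 on AR113Q-NCD arrays. It was -7.07, -6.60, -6.87 and -7.98 on CTR-HFD arrays and -5.99, -6.96, -5.39, -6.19 and -6.14 on AR113Q-HFD arrays. Its signal cleared background clearly on 1 of 5 arrays in CTR-NCD and 0 of 4 in CTR-HFD, against 4 of 5 in AR113Q on each diet. On each diet 4 of 5 AR113Q arrays lay above all CTR arrays. Means were -7.13 ± 0.60 (n = 4) in CTR-HFD, -6.82 ± 0.43 (n = 5) in CTR-NCD, -6.16 ± 0.30 (n = 5) in AR113Q-NCD and -6.13 ± 0.56 (n = 5) in AR113Q-HFD, and neither the CTR nor the AR113Q pair differed by diet beyond its spread. The genotype difference was 0.66 (SE 0.29) on NCD, -1.15 under normexp background correction and 0.94 without scaling, and 0.998 (SE 0.31) on HFD, 0.17 under that correction and 1.37 under quantile normalization. With CTR-HFD, at background on all 4 arrays, set to the background limit, the HFD difference was 1.12-fold. This is no lower bound, because AR113Q-HFD replicate 2 was also not well above background and kept its measured level. Within slides the NCD difference was positive on all 5 slides, from 0.05 to 1.74, and the HFD difference ran from -0.36 to 1.84, positive on 3 of 4. With slide in the fit the differences were 0.66 and 1.03.

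Read beside all probes, 3 of the 7 members (linc-MYH, Eya1 and Sox6) were called lower on NCD at an adjusted p under 0.05 by limma, where 9.3% of all probes were, and 0 were called higher, where 8.08% were. On HFD linc-MYH, Eya1 and Sox6 were called lower, against 10.2% of all probes, and 7.73% of all probes were called higher. Prox1 passed the filter through 8 AR113Q arrays and 1 CTR array well above background, so a call of it as higher is not counted. No member was called by diet, where the fit called 0.0219% of probes lower and 0.00312% higher on HFD in AR113Q, and 0% in CTR (0 of 32026, with 2787 at an unadjusted p under 0.05). The genotype by diet interaction called 0 of 32026 probes, with 1501 at an unadjusted p under 0.05. Since the members were chosen on these values, nothing is read from their counts. With slide in the fit the probes called lower went from 2978 to 4750 on NCD and from 3252 to 5972 on HFD. Probes whose AR113Q and CTR arrays did not overlap made up 8.27% (AR113Q below) and 7.17% (above) on NCD, and 8.5% and 7.19% on HFD. The within-group SD of linc-MYH, 0.34, exceeded that of 63.3% of probes, and the SD of the others was 0.13 for Eya3, 0.15 for Six4, 0.17 for Eya1, 0.19 for Sox6, 0.27 for Eya4 and 0.48 for Prox1.

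The members varied among themselves after group means were removed. Over the 19 arrays the deviations of Eya4 and Sox6 had a Pearson r of 0.62, those of linc-MYH and Six4 0.52, those of linc-MYH and Eya1 0.44, and those of Sox6 and Prox1 -0.45. The other 17 pairs lay between -0.36 and 0.37. These r values describe how arrays of 1 experiment varied together and carry no test, and those of Prox1 rest in part on background signal.

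The genes whose levels over the 19 arrays were most like linc-MYH, among 24649 compared, were Pgam2 (r = 0.986), the unnamed transcript NAP112592-1 (0.982), Slc25a51 (0.981), Pfkm (0.978) and the unnamed probe A_55_P2102210 (0.977). Since the groups separate by genotype, r mainly reflects the genotype difference, and the r of deviations from group means was 0.861, 0.532, 0.686, 0.672 and 0.641. The muscle phosphoglycerate mutase Pgam2 and the muscle phosphofructokinase Pfkm are enzymes of glycolysis. For Sox6 the 5 were Hfe2 (r = 0.984, deviations 0.895), Adi1 (0.982, 0.876), Snx3 (0.973, 0.813), Ccdc6 (0.972, 0.854) and the unnamed probe A_55_P2118810 (0.970, 0.795). For Eya1 they were Cep170b (0.993, 0.982), Ldlrad3 (0.993, 0.981), Hemgn (0.992, 0.984), Arl6ip6 (0.992, 0.979) and Itsn1 (0.988, 0.971). Eya1 itself had an r of -0.822 with the log2 75th percentile subtracted from every gene (deviations -0.552), and linc-MYH had one of -0.828 (deviations -0.542). This r was -0.65 for Sox6, -0.62 for Six4, 0.32 for Eya3, 0.05 for Eya4 and 0.59 for Prox1. The part of this shared term in the likeness of members to other genes was not tested.

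For Six4 the most alike were Tnks2 (r = 0.840, deviations 0.720), Ube2f (0.832, 0.677), Dyrk2 (0.825, 0.690), Cyb5b (0.814, 0.670) and Aatf (0.811, 0.677). For Eya3 they were Cep164 (0.925, 0.845), Msh6 (0.905, 0.810), Kif3a (0.901, 0.871), Rabl2 (0.898, 0.820) and Ttc39c (0.879, 0.740). For Eya4 they were Plekhb1 (0.876, 0.906), Ube2e3 (0.873, 0.895), Enho (0.872, 0.884), Bmyc (0.871, 0.875) and 2210011C24Rik (0.861, 0.865). Among those most like Prox1 were Sntg2 (0.870, 0.860), Spryd3 (0.858, 0.734), Spidr (0.850, 0.726) and Dhdds (0.840, 0.768). Prox1 was well above background on 9 of 19 arrays, so its r values rest in part on background signal. The r values of levels for Six4, Eya4 and Prox1 were lower than those for linc-MYH, Eya1 and Sox6. The r values of deviations for Eya4 were above those for linc-MYH.

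Among relatives of the members and the Dach genes, 6 are described by their main probes. On NCD and HFD the differences were -0.19 and 0.26 for Six2, -0.27 and -0.30 for Six3, 0.13 and 0.19 for Six5, 0.25 and 0.13 for Eya2, -0.08 and -0.26 for Dach1 and 0.39 and -0.32 for Dach2, and 0 of these 6 genes passed by limma on either diet (0 also at an unadjusted p under 0.05). The lowest adjusted p among them was 0.215, for Dach1 on HFD. Without scaling between arrays, which adds 0.28 on NCD and 0.35 on HFD to every gene alike, the signs of Six2, Six3 and Dach1 flipped on NCD and those of Six3, Dach1 and Dach2 on HFD, and under normexp those of Six2, Six5 and Dach2 flipped on NCD. Without scaling Six5 on HFD gave 0.55 (adjusted p = 0.0349). Six3 was well above background on 8 arrays, and Six6 on 1 array, which is too few to be tested.

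linc-MYH lies between Myh3 and Myh2 on chromosome 11, on the strand opposite to the myosin heavy chain genes. In the RefSeq gene order of GRCm38.p6 its neighbours are Myh3 and Mir6923 on one side and Gm31285, Myh2, Myh1, Myhas, Myh4 and Myh8 on the other. On mm9 the Myh3 probes lay 10.9 and 10.2 kb before the linc-MYH probe, and those of Myh2, Myh1, Myh4, Myh8 and Myh13 lay 85.0 kb, 112 kb, 148 kb, 168 to 196 kb and 257 kb after it. Myosin genes of this cluster share near-identical sequence, so a probe may also read a relative, which was not tested.

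The fastest myosin, Myh4, fell by 0.33 (SE 0.08, limma adjusted p = 0.0071, all 5 AR113Q arrays below CTR) on NCD and by 0.50 (SE 0.08, adjusted p = 4.30e-04, all 5 below) on HFD, with its sign flipping on NCD under quantile normalization and with the authors' values. The brightest probe of Myh8, the perinatal myosin, gave -0.25 (adjusted p = 0.0544) on NCD and fell by 0.37 (adjusted p = 0.009) on HFD, with its sign flipping on NCD under quantile normalization, normexp and no scaling, and on HFD under quantile normalization. Other Myh8 probes disagreed: A_55_P2120161 fell by 1.01 (adjusted p = 4.10e-05) on NCD and by 1.31 (adjusted p = 7.51e-06) on HFD, A_55_P2120169 gave -0.11 and 0.22, and the fourth was at background. Myh1 (0.45 and 0.16), Myh2 (0.99 and 0.65), the embryonic Myh3 (0.76 and 1.17) and Myh13 (0.80 and 0.38) did not pass the test on either diet, and Myh3 and Myh13 flipped sign on NCD under normexp. Of these 6 genes by main probe, 1 was called lower on NCD, and 0 under quantile normalization, median centring, normexp or no scaling. With the authors' values 1 was called lower, which was not Myh4 because its sign flipped. On HFD 2 were called lower, but 1 under median centring or with the authors' values. Under quantile normalization, normexp or no scaling 0 were called on HFD. The list's median was 0.60 on NCD, below 0 under normexp, and 0.27 on HFD. The linc-MYH difference of -3.16 and -3.75 was the lowest of any probe in this interval.

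**Figure D3:**
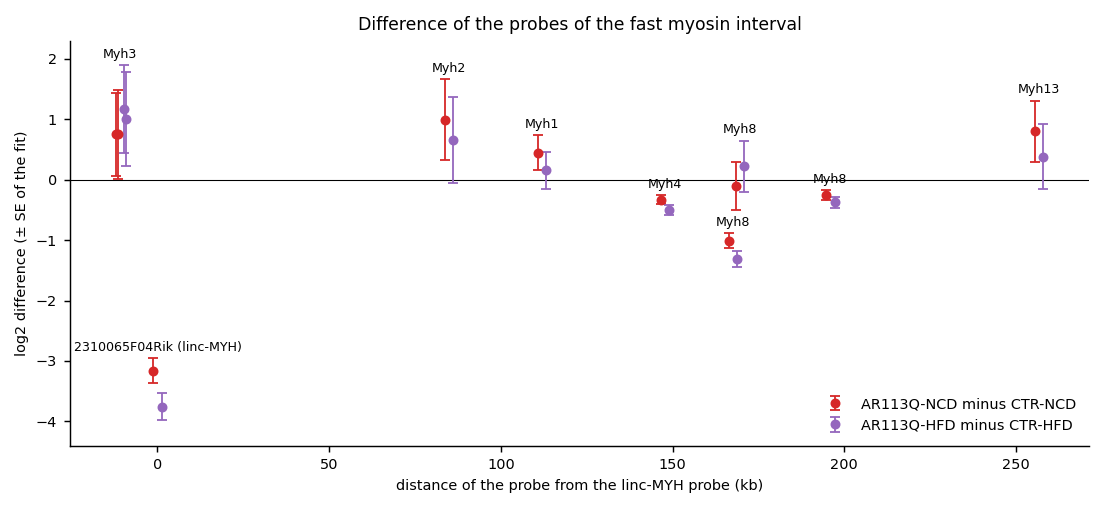
Genotype difference (log2, with SE) of each probe of the fast myosin interval, plotted by distance in kb from the linc-MYH probe, on NCD and HFD. linc-MYH at 0 kb lies at -3.16 and -3.75, and the Myh4 probe at 148 kb lies at -0.33 and -0.50, with its NCD sign flipping under quantile normalization and with the authors' values.

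Most fast fiber genes fell in AR113Q by main probe, though 6 of 23 flipped sign on NCD under quantile normalization and Aldoa went to 0.00. Of the 23 listed, 20 fell on each diet and 0 rose by limma (0 also at an unadjusted p under 0.05). Of all probes 9.3% were called lower on NCD and 10.2% on HFD, and 8.08% and 7.73% were called higher. On NCD the calls went to 11 under quantile normalization, 10 under median centring and 2 under normexp. They went to 11 of 21 with the authors' values and 9 without scaling. On HFD the same settings gave 8, 13, 7, 9 of 21 and 8, and without scaling 1 gene was called higher. The list's medians were -0.42 and -0.50 beside -0.06 and -0.08 over all probes. The median was -0.19 on NCD and -0.07 on HFD both under quantile normalization and with the authors' values. Without scaling it was -0.15 on both diets, where the median of all probes moved to 0.22 and 0.28. The list's median minus that of all probes then stayed at -0.37 and -0.43. Under normexp on NCD the list's median was -0.14, above the -0.57 of all probes. By main probe the largest falls on NCD were Prkag3, Casq1 and Atp2a1, each with all 5 arrays below CTR. Prkag3, a subunit of the energy sensor AMPK in glycolytic fibers, gave -1.44 (SE 0.25, limma adjusted p = 6.97e-04). The calcium store protein Casq1 gave -1.26 (SE 0.13, adjusted p = 7.98e-06). The fast calcium pump Atp2a1 gave -0.83 (SE 0.09, adjusted p = 1.10e-05). On HFD the largest falls by main probe were Casq1 at -1.03 (adjusted p = 7.59e-05), Pgam2 at -0.85 (adjusted p = 1.56e-05) and Atp2a1 at -0.84 (adjusted p = 2.05e-05). Each had all 5 arrays below CTR, and Prkag3 gave -0.80 (adjusted p = 0.0457) with overlapping arrays. Other probes of Tpm1, Myl1 and Pvalb fell by more than Atp2a1, at -1.37, -1.31 and -0.94 on NCD and -1.22, -1.26 and -1.18 on HFD.

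Directions of main probes in the fast list depended in part on scaling. On NCD the sign flipped for Myh4, Myl1, Tnni2 (to 0.00), Tnnt3, Tnnc2 and Tpm1 under quantile normalization, for Myh4, Myl1, Tnni2 and Tnnc2 with the authors' values, and for Tnnc2 under normexp and without scaling. On HFD it flipped for Tnni2 (to 0.00) and Tnnc2 under quantile normalization and for Myl1, Tnni2, Tnnc2 and Sypl2 with the authors' values. The Aldoa difference, taken to 2 decimals, was 0.00 on both diets under quantile normalization and with the authors' values. In the scaling used here Myl1 probe A_52_P273120 gave -1.31 on NCD and -1.26 on HFD. Tpm1 probe A_55_P2078680 gave -1.37 and -1.22, and A_55_P2187043 gave -0.29 and -0.44. Tpm1 probes A_55_P2032192 and A_55_P2187053 gave -0.13 and -0.17 on NCD and -0.06 and -0.15 on HFD. Tnnt3 probe A_55_P2088375 gave -0.36 and -0.47. Signs of these probes under other scalings are not reported here. The list's mean level ran from 7.56 to 7.79 on CTR-NCD arrays and from 7.13 to 7.33 on AR113Q-NCD arrays. On HFD it ran from 7.54 to 7.72 in CTR and from 7.03 to 7.25 in AR113Q. These scaled levels did not overlap between genotypes, but the gap was narrower than for linc-MYH. For linc-MYH the highest AR113Q level was -0.38 and the lowest CTR level 1.85. The subtracted log2 75th percentile was higher in AR113Q by 0.28 on NCD and 0.35 on HFD. Whether the list's mean level separates the genotypes without scaling was not tested. Within slides the list's median difference ran from -0.62 to -0.33 on NCD and from -0.63 to -0.47 on HFD. With slide in the fit it was -0.42 and -0.51.

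Slow fiber genes were mostly higher in AR113Q in value, yet 1 of 17 passed the test on each diet, with 8 higher on NCD and 1 on HFD at an unadjusted p under 0.05. By main probe all 17 had a positive difference on NCD and 15 on HFD, with medians of 1.63 and 0.86. On HFD the main probes of Tpm3 and Mb flipped sign with the authors' values and without scaling, and that of Mb under quantile normalization. The Tpm3 probes disagreed. The main Tpm3 probe gave 0.096 on NCD and -0.12 on HFD. A_55_P2090205 gave 2.18 and 0.9995, and A_55_P2246235 gave 2.425 and 1.28. No Tpm3 probe passed the test on either diet. Casq2, the slow fiber calcium store protein, rose by 2.002 (SE 0.44, limma adjusted p = 0.0042, all 5 arrays above CTR) on NCD and by 1.99 (SE 0.47, adjusted p = 0.0062, arrays overlapping) on HFD. The slow myosin Myh7 gave 2.55 (SE 1.51, adjusted p = 0.296) and 1.88 (SE 1.60, adjusted p = 0.489), and the slow troponin Tnni1 gave 2.44 (SE 1.09, adjusted p = 0.148) and 1.12 (SE 1.15, adjusted p = 0.58).

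The mean level of the slow list varied more between arrays of 1 group than linc-MYH in CTR-NCD (SD 1.15 beside 0.29), CTR-HFD (1.82 beside 0.20) and AR113Q-HFD (1.10 beside 0.47), and as much in AR113Q-NCD (0.34 beside 0.33). It was 2.76, 3.56, 3.25, 0.86 and 1.54 on CTR-NCD arrays, 3.74, 4.17, 4.44, 3.71 and 3.70 on AR113Q-NCD arrays, 1.68, 0.83, 4.06 and -0.21 on CTR-HFD arrays and 3.11, 1.49, 1.05, 2.92 and 3.56 on AR113Q-HFD arrays. CTR-HFD replicate 3, at 4.06 on this list, had a linc-MYH level of 1.95, within the CTR range, and AR113Q-HFD replicate 3, at 1.05, had the lowest linc-MYH level of all arrays, -2.06. On NCD the slow list's mean level was higher on every AR113Q array than on every CTR array, and on HFD the genotypes overlapped. Within slides the slow list's median difference ran from 0.26 to 2.40 on NCD and from -2.44 to 3.19 on HFD. With slide in the fit it was 1.63 and 0.95.

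**Figure D4:**
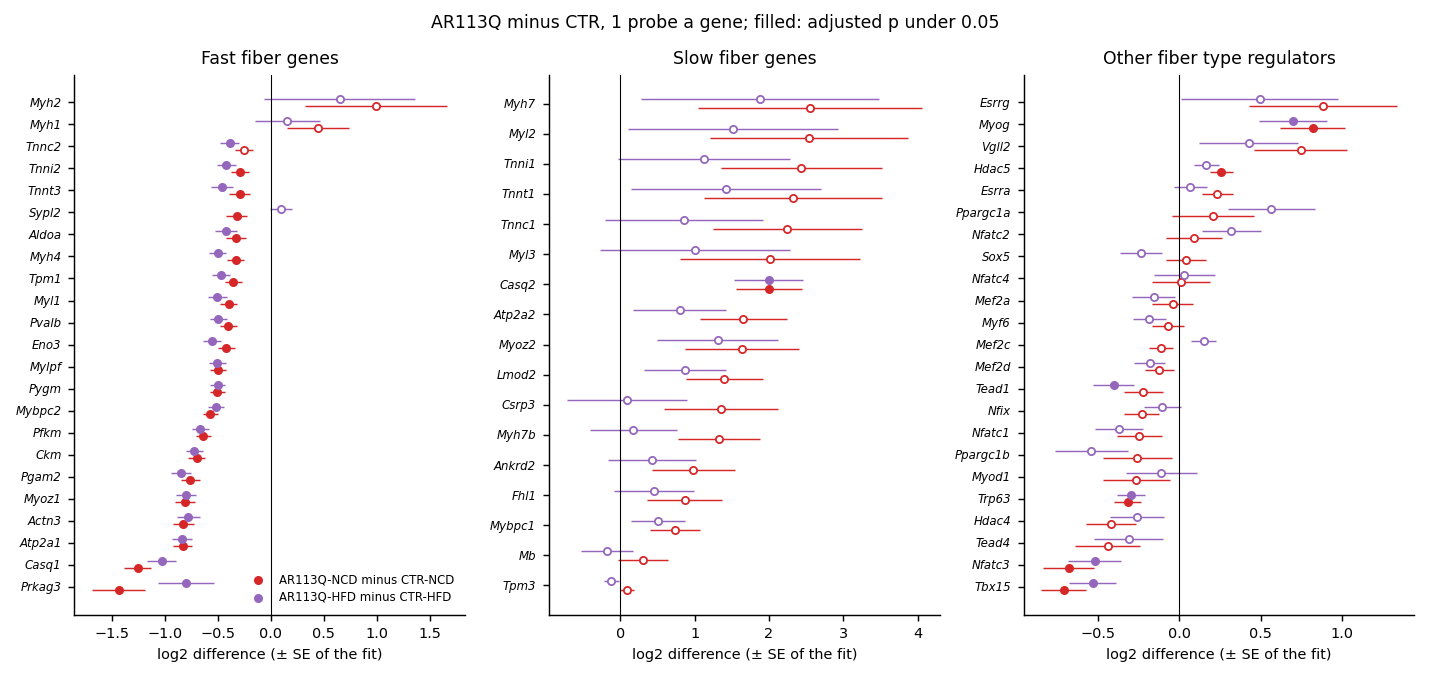
Genotype difference (log2, with SE) of the main probe of each gene of the fast fiber, slow fiber and regulator lists on NCD and HFD. Filled points passed an adjusted p of 0.05 by limma. In the fast list 20 of 23 genes fell on each diet, with 6 of the 23 flipping sign on NCD under quantile normalization. Under other scalings the fast genes called lower went to between 2 and 11 on NCD and between 7 and 13 on HFD. In the slow list Casq2 passed.

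**Figure D5:**
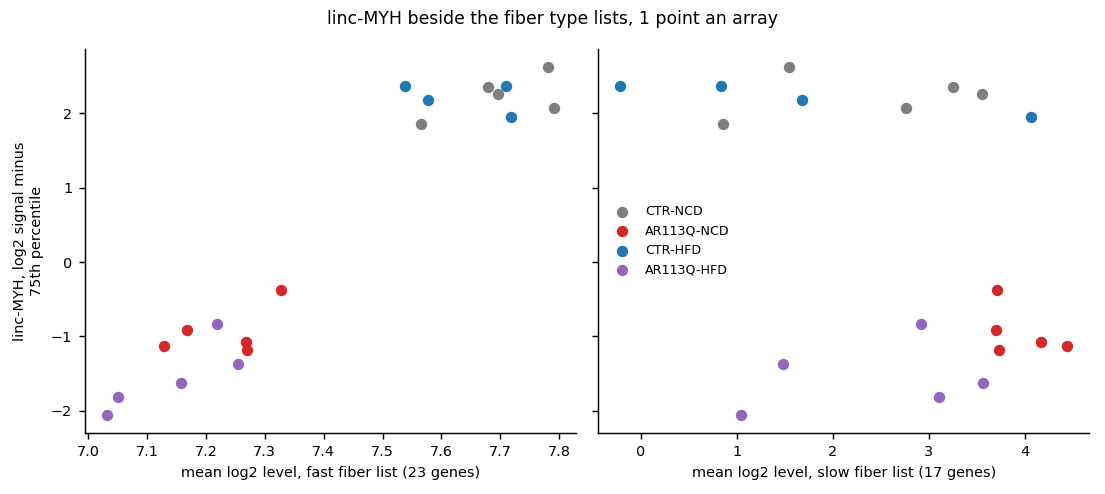
linc-MYH level on each array against the mean level of the fast fiber list and of the slow fiber list. CTR arrays lie at fast list levels of 7.54 to 7.79 and AR113Q arrays at 7.03 to 7.33. Slow list levels overlap between genotypes on HFD, and on NCD they run from 0.86 to 3.56 in CTR and from 3.70 to 4.44 in AR113Q.

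Of 23 other regulators of fiber type, by main probe, 2 rose and 3 fell on NCD and 1 rose and 4 fell on HFD. The limma fit called 8.08% of all probes higher and 9.3% lower on NCD, and 7.73% and 10.2% on HFD. Nothing is therefore read from the counts of this list. Its medians were -0.11 and -0.16. Without scaling the medians were 0.16 and 0.20, where those of all probes moved to 0.22 and 0.28. The list's median minus that of all probes stayed at -0.06 and -0.08. In that setting 5 were called higher and 0 lower on NCD and 6 higher and 0 lower on HFD. Under quantile normalization and with the authors' values 3 were called higher and 1 lower on HFD. On NCD Tbx15, a factor of glycolytic fibers, fell by 0.71 (limma adjusted p = 0.0015), Nfatc3, an effector of calcineurin, fell by 0.68 (adjusted p = 0.0051), and the main probe of Trp63 fell by 0.32 (adjusted p = 0.0132), each with all 5 arrays below CTR, while the myogenic factor Myog rose by 0.82 (adjusted p = 0.0083) and the deacetylase Hdac5 by 0.26 (adjusted p = 0.0191), each with all 5 above. On HFD, with arrays overlapping, Tbx15 fell by 0.53 (adjusted p = 0.0161), Nfatc3 by 0.52 (adjusted p = 0.0348) and Tead1 by 0.40 (adjusted p = 0.0352), and Myog rose by 0.70 (adjusted p = 0.0292). Tead1 flipped sign on NCD under normexp and without scaling. The fourth HFD fall, the main Trp63 probe at -0.30 (adjusted p = 0.0264), flipped sign without scaling, and the other Trp63 probes gave 0.41, 0.80 and 0.83 on NCD and 0.63, 1.17 and 0.88 on HFD, so the Trp63 probes disagree. Ppargc1a, the coactivator of mitochondrial genes, gave 0.21 (adjusted p = 0.665) and 0.56 (adjusted p = 0.174).

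Markers of cell types gave the setting for these levels. Of 6 muscle fiber markers 4 fell on NCD (Acta1, Ckm, Myh4 and Tnnt3) and these 4 also on HFD, with the sign of Myh4 and Tnnt3 on NCD and of Acta1 on HFD flipping under quantile normalization, and of Myh4 on NCD with the authors' values. The 4 calls on NCD went to 1 under quantile normalization, median centring, the authors' values and no scaling and to 0 under normexp, and those on HFD to 2 under median centring and 1 under each of the other 4. On HFD Des rose by 0.32 (adjusted p = 0.0369, all 5 above CTR), a call lost under median centring and normexp. The most abundant was Acta1, and the log2 of the summed level ran from 10.45 to 11.23. Of 6 lymphatic markers 5 were tested, 0 passed on NCD by limma (0 also at an unadjusted p under 0.05), and Pdpn, the most abundant, rose by 0.55 (adjusted p = 0.0451, all 5 above CTR) on HFD, a call lost under median centring and normexp. Lyve1 gave 0.21 (adjusted p = 0.677) and 0.32 (adjusted p = 0.498), Reln and Foxc2 were well above background on 17 and 16 arrays, Ccl21a was not on the array by that name, and the log2 summed level ran from 0.39 to 1.65. The part of these markers in the Prox1 level was not tested.

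Among satellite cell markers on NCD, the most abundant, Cdh15, fell by 0.35 (limma adjusted p = 0.0125, all 5 arrays below CTR) and Calcr rose by 0.59 (adjusted p = 0.0399), with the sign of Calcr flipping under normexp. Both calls were lost under median centring and normexp, and that of Cdh15 also without scaling. Myf5 was not well above background on any array, and summed levels ran from 2.04 to 2.71. Of the blood vessel endothelium markers the most abundant, Vwf, fell by 0.37 (adjusted p = 0.0252, arrays overlapping) on NCD, a call lost under median centring, under normexp, with the authors' values and without scaling, with summed levels of 3.54 to 4.19. Of the fibroblast markers Lum rose by 0.28 (adjusted p = 0.0478, arrays overlapping) on NCD and by 0.42 (adjusted p = 0.0062, all 5 above CTR) on HFD, with Dcn the most abundant and summed levels of 6.88 to 7.63. The Lum call was lost under normexp on both diets, and on NCD also under median centring and quantile normalization. Of the Schwann cell markers S100b rose by 0.58 (limma adjusted p = 0.0053, all 5 above CTR) on NCD, a call lost under normexp. Prx was the most abundant, with summed levels of 1.39 to 2.13. By main probe 0 satellite cell, endothelium or Schwann cell markers passed by limma on HFD. The Kdr probes disagreed there: A_51_P316553 fell by 0.69 (limma adjusted p = 0.0249, all 5 arrays below CTR). The main Kdr probe gave -0.31 (adjusted p = 0.2735, arrays overlapping). The 6 endothelium differences by main probe were all negative on HFD, and all positive without scaling.

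Among macrophage, adipocyte, red blood cell and smooth muscle markers 0 passed by limma on either diet by main probe. At an unadjusted p under 0.05 there were 0 for macrophages and smooth muscle, 1 for adipocytes (lower, on HFD) and 1 for red blood cells (Slc4a1, lower, on NCD), which was called lower under quantile normalization (-0.64, adjusted p = 0.0323) and with the authors' values (-0.64, adjusted p = 0.0222). The most abundant were Csf1r, Cfd, Hba-a1 and Tagln, in that order, with summed levels of 3.06 to 3.92, 3.81 to 6.85, 5.26 to 7.71 and 4.26 to 5.36. The macrophage marker Adgre1 was measured under its earlier name Emr1, which gave -0.11 (adjusted p = 0.753) on NCD and -0.16 (adjusted p = 0.644) on HFD. The part of these cell types in the members' levels was not tested.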

How the data were processed

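Total RNA of quadriceps from 19 samples in 4 groups was labelled with Cy3 and hybridised to Agilent one-colour mouse arrays. The deposited scanner files hold processed and raw signals in units of intensity, made by the authors with Feature Extraction 10.7.3.1. The authors' deposited table holds log2 values normalized between arrays by a method that the sample labels do not name. Its 25944 entries were all matched to probes. The members and gene lists were chosen with earlier results of these data known.

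Of 43020 spots that were not controls, replicate spots were combined to 39429 probes. Each array's log2 75th percentile was subtracted. A probe was tested when well above background on at least 4 arrays, which kept 32026 probes. Per array, 67.1% to 80.1% of probes stood well above background, and the number of arrays limits the precision. R 4.3.3 with limma 3.58.1 and data.table (version 1.17.8) fitted the 4 groups together, with Benjamini-Hochberg adjustment over all tested probes and a threshold of 0.05. Tables and figures used Python 3.11.15, pandas 2.3.3 and matplotlib 3.10.9. The main probe of a gene is its tested probe with the highest mean signal. Standard errors come from the fit.

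Named are all members, Six2, Six3, Six5, Six6, Eya2, Dach1 and Dach2, every gene of the myosin cluster list, the 3 largest rises and falls among genes that passed in the fast, slow and regulator lists on each diet, and Tnni1, Myh7, Myh4, Prkag3 and Ppargc1a. Also named are the most abundant gene of each marker list with those near background, and genes among the 5 most like each member by Pearson r. Some genes of these lists are not reported here. Marker genes named for passing the test, Lyve1, and the genes whose sign flips were chosen after their values were seen.

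As alternatives, arrays were centred on their median, quantile normalized or corrected by normexp with an offset, and the authors' values were used. Others were no filter, a stricter filter, slide or replicate number as a block, array weights, each pair of groups fitted alone, a fold threshold and leaving out each array. Using no scaling between arrays was added after the data were seen.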

Additional observations from a re-analysis of the deposited data

Results flagged for a closer look

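Of 36 groups of arrays examined over the levels reported, 2 held an array that stood far from the others, and chance gives about 1 in 20. AR113Q-NCD replicate 4 had an Eya1 level of 3.50 where the other 4 arrays of its group lay between 2.96 and 3.07. CTR-HFD replicate 3 had an Eya4 level of 0.0519 where the other 3 arrays lay between 0.83 and 0.90. No cause of either was tested.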

How the results depend on the processing

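The linc-MYH difference kept its sign under all 30 alternatives, from -3.30 to -2.66 on NCD and from -3.93 to -3.39 on HFD, as did Sox6, from -0.99 to -0.66 and from -0.79 to -0.31. Normexp moved the median of all probes on NCD from -0.06 to -0.57; on 5 arrays its array medians lay between -1.45 and -0.64. Without scaling, 91.4% of the probes called on NCD and 94.9% on HFD were higher, against 46.5% and 43.2%. Where a value below differs, the cause was not tested. Signal near background limits Prox1.

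Members called lower on HFD went from 3 to 1 with a fold threshold and to 1 without scaling, to 4 with slide or replicate number as a block (Six4 added), and without CTR-HFD replicate 2 Six4 took the place of Eya1. Members called higher went from 0 to 2 (Eya3 and Prox1) on NCD without scaling. On HFD, where the 1 call is Prox1 and supports nothing because of how it passed the filter, they went from 1 to 0 under normexp, with the stricter filter (which removes Prox1) and with pairs of groups fitted alone, and to 2 without scaling (Eya3 added); leaving out 1 array gave 0 to 1, with 0 without CTR-HFD replicate 1 or 4 or AR113Q-HFD replicate 1, 3 or 5.

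Fast genes called lower on NCD went from 20 to 11 under quantile normalization, 10 under median centring, 2 under normexp, 11 of 21 with the authors' values, 9 without scaling and 6 with a fold threshold, and leaving out 1 array gave 16 to 20. On HFD the same settings gave 8, 13, 7, 9, 8 and 6, and leaving out 1 array gave 19 to 20.

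Slow genes called higher on NCD went from 1 to 2 with array weights, 3 with pairs fitted alone and 5 without scaling. Leaving out 1 array gave 1 to 3, with 2 without CTR-NCD replicate 1, CTR-NCD replicate 2 or CTR-HFD replicate 4 and 3 without CTR-HFD replicate 3. On HFD it gave 1 to 3, with 3 without CTR-HFD replicate 3.

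Regulators called on NCD went from 5 to 2 under median centring, 0 under normexp and 1 with a fold threshold, and leaving out 1 array gave 4 to 6. On HFD they went from 5 to 0 under median centring, normexp and pairs fitted alone and to 1 with a fold threshold. Leaving out 1 array gave 0 to 5, with 0 without CTR-HFD replicate 2, 1 without AR113Q-HFD replicate 1, 2 without CTR-HFD replicate 4, and 3 without CTR-HFD replicate 1, CTR-HFD replicate 3 or AR113Q-HFD replicate 5.

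Probes called by diet went from 8 to 5 under median centring, 2 under normexp, 2 with slide and 2 with replicate number as a block, 13 with array weights, 1 with pairs fitted alone and 4 without scaling. Leaving out 1 array gave 0 to 15: 0 without AR113Q-NCD replicate 5, 1 without AR113Q-HFD replicate 2, 2 without AR113Q-NCD replicate 3 or AR113Q-HFD replicate 1 or 5, 4 without CTR-NCD replicate 2, 5 without AR113Q-NCD replicate 2 or AR113Q-HFD replicate 3, 13 without CTR-HFD replicate 1 and 15 without AR113Q-HFD replicate 4.

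Replicate numbers were checked as pairs: over 27 pairs with the same number the r of deviations ran from -0.21 to 0.54 with a median of 0.24, and 19 exceeded 0.1. Samples were to be treated as pairs by number where all 27 did. The 108 other pairs had a median of -0.09, and the number equals the slide on all arrays but 1 (same slide: median 0.27, 22 of 27 over 0.1), so arrays of 1 slide shared variation that the fit without slide leaves in its errors. With replicate number in the fit the counts other than that by diet stayed within 1.5 times those reported.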
